A study of Mus musculus with 12 samples.

Results

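Sprr1a encodes small proline-rich protein 1a, and its transcript is described here in the left ventricles of 12 mice, on a microarray with 1 probe for it, ASMM10P025000. It is 1 probe of 60819 analysed. It was taken up for its gene, which the study had picked from values of these same arrays, and the files themselves give the probe no gene name. The arrays were 1-colour Agilent arrays of a mouse lincRNA and mRNA design, hybridized with Cy3-labelled cRNA of 1 C57BL/6J mouse each. The 4 groups of 3 mice were sham miR-150 fl/fl, MI miR-150 fl/fl, sham miR-150 cKO and MI miR-150 cKO, and each held 1 male and 2 females. MI was myocardial infarction by ligation of the left anterior descending coronary artery, and the ventricles were taken 4 weeks after it or after sham surgery. All 12 mice carried the floxed miR-150 alleles. The 6 cKO mice also carried alpha-MHC-Cre, whose promoter is active in cardiomyocytes, so that the deletion was aimed at these cells alone. No group carried the Cre without the floxed alleles, and Cre and loss of miR-150 cannot be told apart. Ages at harvest were 13 and 14 weeks in the miR-150 fl/fl mice and 14 and 15 weeks in the cKO mice.

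Small proline-rich proteins are best known from skin, where transglutaminases cross-link them into the cornified envelope of the keratinocyte. SPRR1A is also induced outside skin, in injured neurons and in stressed cardiomyocytes, where gp130 cytokines are among its known inducers. MicroRNAs such as miR-150 pair with target transcripts and lower their translation and stability. The study picked Sprr1a as a candidate target of miR-150 in the cardiomyocyte and then followed it by qPCR, a luciferase reporter and protein levels. The arrays bear on the level of its transcript in the whole ventricle. In RNA of whole tissue, a change in the number of cells of a type and a change in RNA per cell cannot be told apart.

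In GRCm38.p6 the RefSeq gene lies on chromosome 3, from 92483954 to 92485881 on the minus strand. The 250 bases before its start, chr3:92485882-92486131, minus strand, are shown because Sprr1a is known as a gene of stressed cells, and AP-1, a dimer of Fos and Jun proteins, is a main carrier of such signals to promoters. Capitals mark the matches to TGANTCA, the AP-1 motif, and to TATAAA, the TATA box. The sequence is from RefSeq and reads 5′ to 3′.
Sprr1a promoter: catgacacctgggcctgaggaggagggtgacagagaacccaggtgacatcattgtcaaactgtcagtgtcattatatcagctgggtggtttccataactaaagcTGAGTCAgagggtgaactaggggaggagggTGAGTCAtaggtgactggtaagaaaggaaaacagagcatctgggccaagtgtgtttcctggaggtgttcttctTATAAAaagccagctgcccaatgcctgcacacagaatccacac
TGANTCA, which reads the same on both strands, matched 2 times, and these matches began 146 and 116 bases before the start. Of 32851 mouse promoter windows of the same length, 6.75% held it at least 1 time and 0.338% at least 2 times. TATAAA, searched on both strands, matched 1 time, 43 bases before the start, and was in 12.4% of the windows. TTCNNNGAA, the motif of the STAT factors downstream of gp130, had 0 matches, and 7.02% of the windows held it. The motifs did not overlap. A match describes the letters of the window only.

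Sprr1a was measured on every array. Its spot was 9.60 to 109 times as bright as its local background, was well above background on 12 of 12 arrays and was neither saturated nor flagged. The scanner software's own error estimate was 10% to 10.4% of the signal. Values below are log2 of the background-subtracted signal minus the 75th percentile of the same array, so that 0 is the brightness of the probe at the 75th percentile. With 1 Sprr1a spot per array there was no repeat of the spot. As a guide to spot error, 15 housekeeping probes were each printed many times per array, and the median SD among the spots of a probe was 0.025 to 0.075 log2 units.

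In sham miR-150 fl/fl hearts, the lowest group, Sprr1a stood at -1.40, -1.04 and -1.40. In MI miR-150 fl/fl hearts it stood at -0.13, -0.15 and 0.33. In sham miR-150 cKO hearts it stood at 1.45, 0.82 and -0.16. In MI miR-150 cKO hearts, the highest group, it stood at 1.13, 2.42 and 1.5. Each of the 3 sham miR-150 fl/fl hearts was thus below each of the other 9. The sham miR-150 cKO hearts spread over the whole distance from the level of infarcted miR-150 fl/fl hearts to that of infarcted cKO hearts. Signals before scaling were 141 to 167 in sham miR-150 fl/fl, 335 to 468 in MI miR-150 fl/fl, then 303 to 1198 in sham miR-150 cKO and 1027 to 2502 in MI miR-150 cKO.

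**Figure D1:**
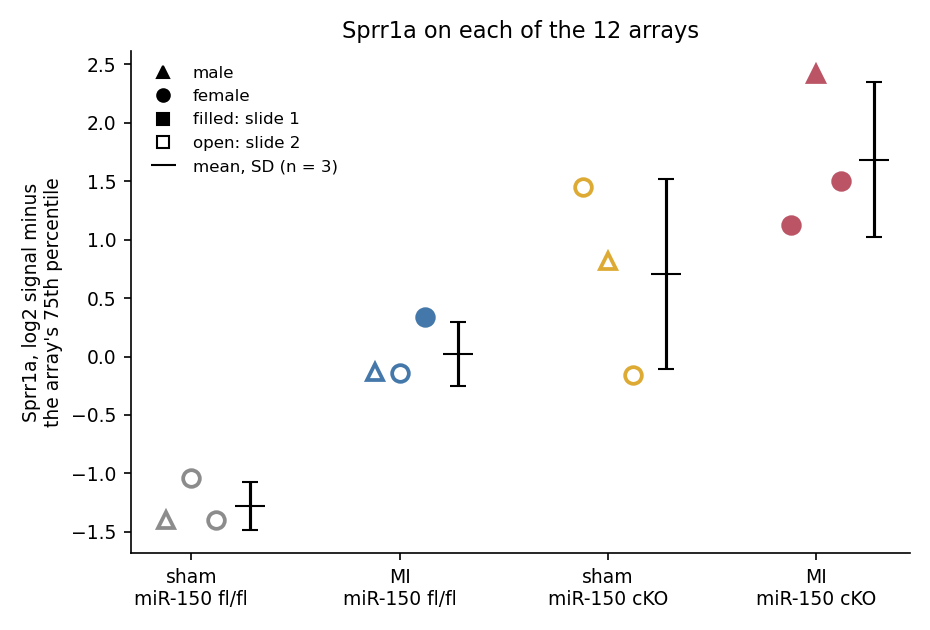
Sprr1a log2 signal minus the array's 75th percentile (vertical axis) for each mouse, by group; triangles are males, circles females, filled symbols slide 1 and open symbols slide 2, and the bars are the mean and SD of 3 mice. The 3 sham miR-150 fl/fl mice lie lowest, from -1.40 to -1.04, and the sham miR-150 cKO mice spread from -0.16 to 1.45.

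The mean of sham miR-150 fl/fl was -1.28 ± 0.21 (SD, n = 3), and that of MI miR-150 fl/fl was 0.02 ± 0.27. Among the cKO hearts the means were 0.70 ± 0.81 after sham surgery and 1.69 ± 0.66 after MI. The neighbours MI miR-150 fl/fl and sham miR-150 cKO overlapped, and so did sham miR-150 cKO and MI miR-150 cKO. The order of these neighbours did not hold beyond their spread. Arrays of the same group differed more in the cKO groups, by these SDs. The SD in sham miR-150 cKO was larger than that of 99.2% of the probes well above background on every array, and the SD in MI miR-150 cKO larger than that of 99.0% of them. In sham and MI miR-150 fl/fl hearts the corresponding shares were 64.3% and 81.7%. The median SD over those probes was 0.16, 0.14, 0.16 and 0.11 in the same order of groups as the means. The spread was not tested between groups.

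The labels do not give slides, and 2 slides were inferred from scan batch and array position in the file headers. On slide 1 were all 3 arrays of MI miR-150 cKO with replicate 3 of MI miR-150 fl/fl, and on slide 2 were the other 8. The MI miR-150 cKO group and its slide therefore cannot be told apart except through that 1 MI miR-150 fl/fl array, which was the brightest of its group for Sprr1a. Probes well above background made up 74.1% to 90.3% of an array, and both ends of this range were in sham miR-150 cKO. Its replicate 1 (Sprr1a 1.45) was in row 1 of slide 2, at 90.3%. Replicates 2 and 3 (0.82 and -0.16) were in row 2, at 74.1% and 76.1%. With 1 array per mouse, a difference between mice and one between arrays cannot be told apart. Of the defining markers of cardiomyocytes, only Tnnt2 of the 10 listed had a named probe, and both its probes were well above background on every array.

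The question of the first comparison was how infarction moved Sprr1a in hearts with miR-150. MI miR-150 fl/fl exceeded sham miR-150 fl/fl by 1.30 (SE 0.40) on the log2 scale, 2.46-fold, and the groups did not overlap. The study picked Sprr1a because it was higher here and in the next comparison on these same arrays, so both are given as descriptions without a test. Limits on all probes were a fold of 1.5 or more together with p under 0.05 before adjustment, and past them 0.881% of the 54232 probes tested were higher in this comparison. There were 130 probes with a larger difference than Sprr1a. The males differed by 1.27 and the females by 1.32. Within slide 2, with 2 MI arrays left, the difference was 1.14. Those MI arrays lay in row 2 of the slide and the sham arrays in row 1. No slide row held both groups, so surgery and row cannot be told apart there.

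The second of these comparisons asked how loss of miR-150 from cardiomyocytes moved Sprr1a in infarcted hearts. MI miR-150 cKO exceeded MI miR-150 fl/fl by 1.67 (SE 0.40), 3.17-fold, without overlap. Here 3.45% of all probes were higher past the limits, and 91 probes had a larger difference. The male pair differed by 2.55 and the female means by 1.22. Within slide 1, where MI miR-150 fl/fl had 1 array, the difference was 1.35. All MI miR-150 cKO mice were 15 weeks old and all MI miR-150 fl/fl mice 14, so genotype and age cannot be told apart between these groups. With age as a covariate, fitted over all arrays, the difference was 1.66 (SE 0.61).

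Sham surgery shows the genotypes without infarction. The study did not use this comparison in picking Sprr1a, but the 3 sham miR-150 fl/fl arrays, low for Sprr1a, also stood in a comparison that it did use, so the test is not independent of the choice. Sham miR-150 cKO exceeded sham miR-150 fl/fl by 1.99 (SE 0.40, 95% interval 1.1 to 2.88), 3.96-fold. The groups did not overlap, and only 18 of the 54232 probes had a larger difference. The adjusted p was nevertheless 0.509 (limma, Benjamini-Hochberg adjustment, 3 mice against 3), with an unadjusted p of 0.00051. limma called 0.0% of the probes in this comparison at an adjusted p under 0.05, that is 0 of 54232, while 4976 were under 0.05 before adjustment. With the methods' unpaired 2-tailed test the count was 0 as well, and 2614 were under 0.05 before adjustment. Past the limits of fold and unadjusted p, 0.636% of all probes were higher, and Sprr1a was among them. All these arrays were on slide 2. The difference was 2.22 in males and 1.87 in females. With age as a covariate, fitted over all arrays, it was 1.98 (SE 0.61). On the slide row shared by all 3 arrays of sham miR-150 fl/fl with 1 array of sham miR-150 cKO it was 2.74. Leaving out sham miR-150 cKO replicate 1, the brightest, gave 1.61 with an adjusted p of 0.0905. The count of 0 calls rested on that array, since without it limma called 304 probes, with 10587 under 0.05 before adjustment and 813 in place of 345 higher past the limits.

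Infarction was also compared with sham surgery within the cKO hearts, where arrays of the same group lay far apart. MI miR-150 cKO exceeded sham miR-150 cKO by 0.98 (SE 0.40, interval 0.09 to 1.87), 1.97-fold, and the groups overlapped. The MI miR-150 cKO arrays also stood in a comparison by which the study picked Sprr1a. The test is thus not independent of that choice, and its adjusted p was 0.201 by limma. In this comparison limma called 2.1% of all probes at the adjusted limit, and 4.6% were higher past the limits of fold and unadjusted p. With a difference larger than that of Sprr1a there were 776 probes. The male pair differed by 1.60 and the female means by 0.67. No slide held both groups, and with slide as a block the difference was 0.51. Without sham miR-150 cKO replicate 3, the dimmest, it was 0.55. The 1139 probes called in this comparison, the 2.1%, fell to 0 without replicate 2 or 3 of either group, and were 4056 without sham miR-150 cKO replicate 1. They were also 0 with the methods' unpaired 2-tailed test, the replicate block, age as a covariate, scaling on Gapdh or on the housekeeping probes, or a fit of these groups alone.

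Noninfarcted hearts without miR-150 in their cardiomyocytes were also set against infarcted hearts with it. Sham miR-150 cKO exceeded MI miR-150 fl/fl by 0.69 (SE 0.40, interval -0.20 to 1.57), 1.61-fold, with an adjusted p of 0.475 by limma, and the groups overlapped. The MI miR-150 fl/fl arrays stood in the comparisons by which the study picked Sprr1a, so this test is not independent of that choice. limma called 0.0% of the probes here, 7298 were under 0.05 before adjustment, and 0.765% were higher past the limits. With the methods' unpaired 2-tailed test the counts were 0 and 4360. The value was 0.31 without sham miR-150 cKO replicate 1 and 1.12 without replicate 3 of that group. Within slide 2 it was 0.84, and within row 2 of that slide, with 2 arrays of each group, it was 0.47. Without sham miR-150 cKO replicate 1 limma called 1011 probes in place of 0, and 1136 in place of 415 were higher past the limits.

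The extremes of the design, MI miR-150 cKO and sham miR-150 fl/fl, differed by 2.97 (SE 0.40, interval 2.08 to 3.86), 7.82-fold, and only 6 probes had a larger difference. This difference is the sum of those by which the study picked Sprr1a and is not independent of them. The adjusted p was 0.0677 by limma, over the limit, and across the alternatives it ran from 0.030 to 0.9999. Leaving out an array of a group outside the comparison, sham miR-150 cKO replicate 3, brought it to 0.030 through the shared estimate of spread. Of all probes, 0.00553% were called at the adjusted limit, 3 in number and 0 to 10 with 1 array left out, and 3.01% were higher past the limits of fold and unadjusted p. Under the other settings the number called ran from 0, as with the replicate block, to 258 with normexp background correction. No slide held both groups, and slide as a block gave 2.49. All MI miR-150 cKO mice were older than all sham miR-150 fl/fl mice, so group and age cannot be told apart either. With age as a covariate, fitted over all arrays, the difference was 2.96 (SE 0.73), with an adjusted p of 0.640 by limma.

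Whether infarction moved Sprr1a differently in the genotypes was the last comparison. The difference of differences, cKO minus fl/fl, was -0.32 (SE 0.57), with an interval from -1.58 to 0.94 and an adjusted p of 0.827 by limma. This term shares arrays with the comparisons by which the study picked Sprr1a, so its test is not independent of that choice. limma called 0.0% of the probes for this term, and 7285 were under 0.05 before adjustment. The interval reached from a response 1.58 log2 units smaller in cKO hearts to one 0.94 larger. Without sham miR-150 cKO replicate 1 the value was 0.054, so its sign rested on that array. limma then called 65 probes for this term in place of 0.

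**Figure D2:**
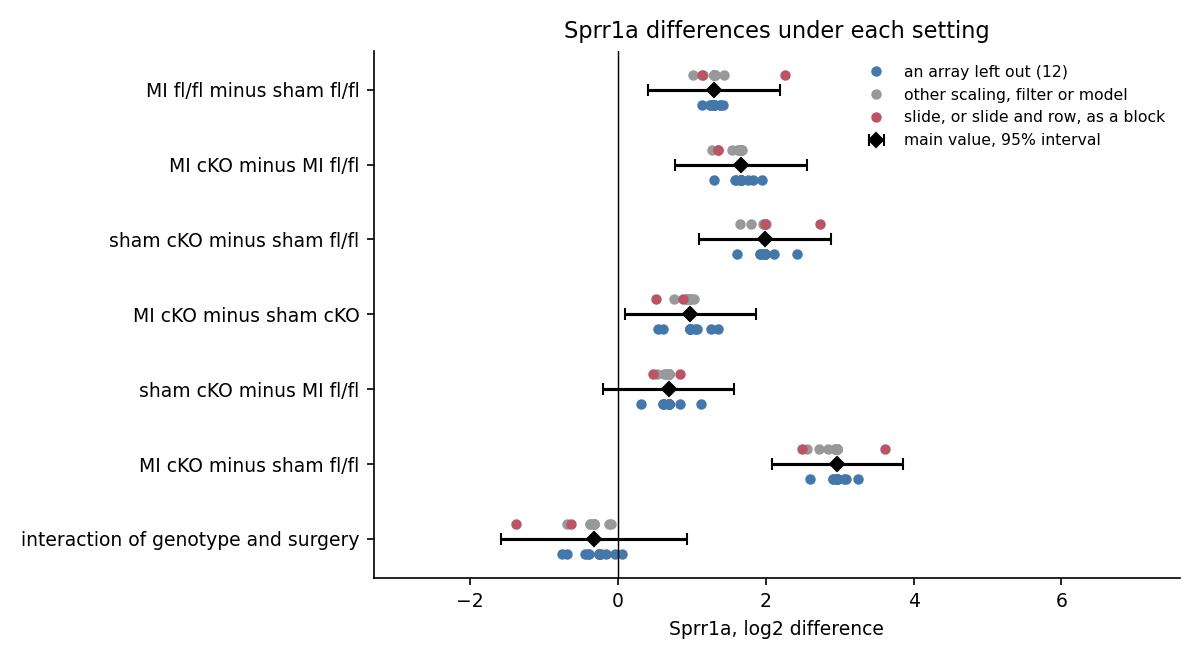
Log2 differences of Sprr1a (horizontal axis) for each comparison and for the interaction: black diamonds are the main values with 95% intervals, blue points leave out 1 array, grey points use another scaling, filter or model, and red points take slide, or slide and row, as a block. Every value of the 6 comparisons lies above 0, and the interaction runs from -1.38 to 0.054.

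Genes with a pattern like that of Sprr1a were looked for among the 43882 probes well above background and measured on all 12 arrays. A probe mostly has a gene name here because the study listed it as past its limits in some comparison. The 720 named probes compared are therefore a selected set, and their median r with Sprr1a was 0.44 against -0.01 over all probes. Correlations are over 12 arrays in 4 groups that share slides and scaling, and carry no p. There were 10 probes with r of at least 0.9, and 6 of these had a name.

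Nppa was the most alike of all probes, with an r of 0.95 and a Spearman rho of 0.94. The study filtered Nppa, and Comp below, together with Sprr1a for being higher in the same comparisons of these arrays. Part of their likeness to Sprr1a was thus chosen. The study's qPCR did not bear out Nppa or Comp as higher in both of those comparisons, as it did Sprr1a. Nppa encodes atrial natriuretic peptide, which the ventricle makes again under load. Without the 2 arrays farthest from the median of Sprr1a, r was still 0.95. Nppa was 3.36 to 4.15 in sham miR-150 fl/fl, 4.83 to 5.27 in MI miR-150 fl/fl, then 5.02 to 6.55 in sham miR-150 cKO and 6.40 to 7.13 in MI miR-150 cKO. Its groups thus stood in the order of those of Sprr1a. After subtraction of the group means, r of Nppa and Sprr1a was 0.67 over all groups together. The mice stood in the same order for Nppa and Sprr1a in the MI groups but not in the sham groups. In sham miR-150 fl/fl the mouse highest for Nppa, 4.15, had Sprr1a at -1.40.

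Among named genes the other 9 most alike were B4galnt1 (r 0.93), Sdc1 (0.91), Comp (0.91), Leprel1 (0.91), Gpr176 (0.91), Col8a1 (0.90), Inhbb (0.90), Col6a1 (0.89) and Gdf15 (0.89). B4galnt1 makes complex gangliosides, and Sdc1 is the heparan sulfate proteoglycan syndecan-1. Comp, Col8a1 and Col6a1 are matrix proteins, and Leprel1, now called P3h2, hydroxylates prolines of collagen. Unnamed probes stood between them, so that 3 probes were more alike than that of B4galnt1 and 18 more than that of Gdf15. Gpr176 is an orphan receptor. Inhbb is a subunit of activin B and inhibin B, and Gdf15 is a cytokine of cellular stress. Without these 2 farthest arrays, MI miR-150 cKO replicate 2 and sham miR-150 fl/fl replicate 3, their r was 0.82 to 0.90. Of the 10 genes, 7 had a promoter window, and 1 of them, Col6a1, held TGANTCA.

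The overlaps of Gdf15 differed from those of Sprr1a. Gdf15 was 0.70 to 1.03 in sham and 0.69 to 1.14 in MI miR-150 fl/fl hearts, which overlapped, while Sprr1a did not overlap there. In the cKO groups Gdf15 was 1.16 to 2.02 after sham surgery and 2.35 to 2.97 after MI, and neither overlapped with the other or with MI miR-150 fl/fl. The lowest sham miR-150 cKO value, 1.16, was however barely above the highest MI miR-150 fl/fl value, 1.14. Inhbb likewise overlapped between sham and MI miR-150 fl/fl, at -0.60 to -0.03 and -0.39 to -0.23.

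Among the 5 named genes most opposite to Sprr1a were Tcap (r -0.86), Fbp2 (-0.84), Wipf3 (-0.84) and Ech1 (-0.81). Tcap is the sarcomere protein telethonin, Fbp2 is the muscle fructose bisphosphatase, and Ech1 is an enzyme of fatty acid oxidation. Tcap was 4.08 to 4.35 in sham miR-150 fl/fl and 3.23 to 3.41 in MI miR-150 cKO.

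**Figure D3:**
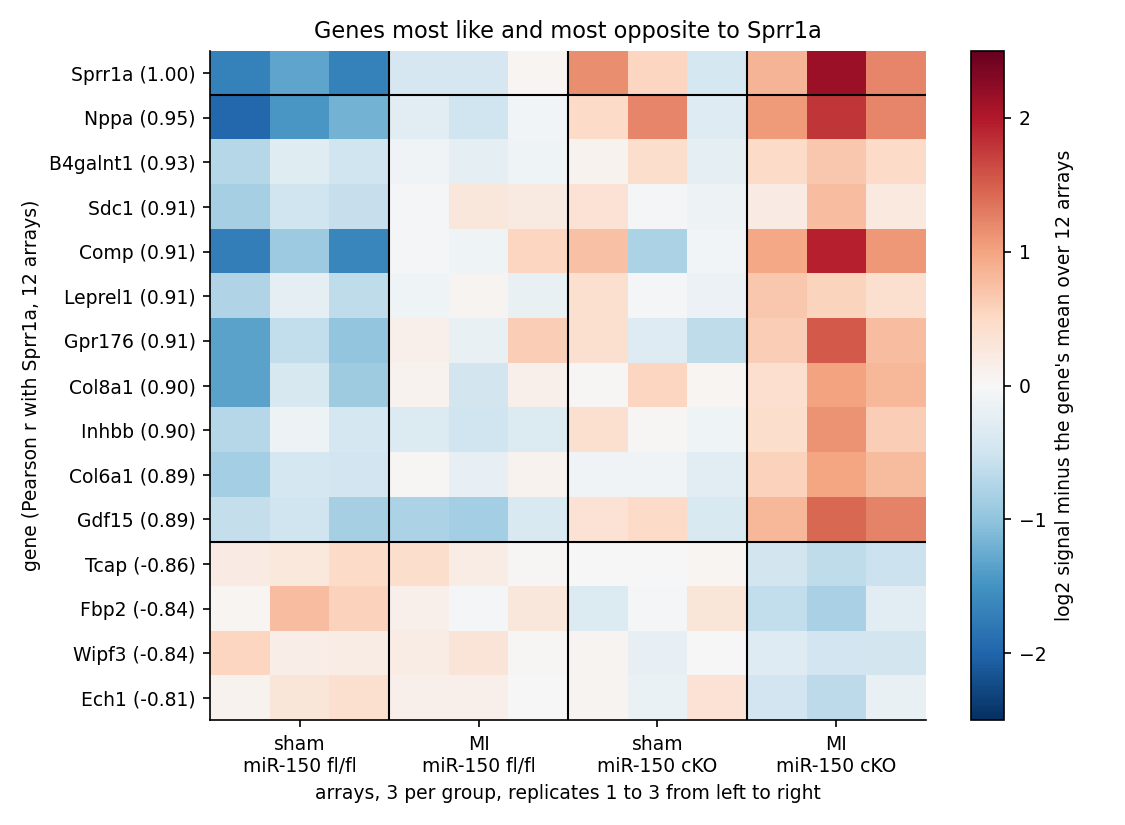
Sprr1a (top row), the 10 named genes most like it and 4 of the 5 most opposite, on the 12 arrays ordered by group; colour is log2 signal minus the gene's own mean, and Pearson r is in brackets. Sprr1a and the 10 genes are mostly below their means in sham miR-150 fl/fl and above them in MI miR-150 cKO, and the 4 mostly run the other way.

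Within groups, where the mean of each group had been subtracted, the named genes most like Sprr1a were Gpr176 (r 0.90), Adamts2 (0.88), Gdf15 (0.86), Inhbb (0.84), Sdc1 (0.83), Ltbp3 (0.81), Hk1 (0.81), Col1a1 (0.78), Vdr (0.78) and Col1a2 (0.77). They share 4 genes with the first list. Adamts2 cuts the ends off procollagens, Ltbp3 binds latent TGF-beta, Hk1 is hexokinase 1, Vdr is the vitamin D receptor, and Col1a1 and Col1a2 are the chains of type I collagen. These values say which transcripts were high in the same hearts as Sprr1a, with only 8 degrees of freedom among the deviations.

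Fetal and stress genes of the cardiomyocyte were set beside Sprr1a. Of 19 such genes listed, 9 had a named probe, 10 probes in all. Between MI and sham miR-150 fl/fl, 3 of these 10 probes were higher past the limits, where 0.881% of all probes were, and 0 were lower, where 0.365% of all probes were. For MI against sham miR-150 cKO the counts were 3 higher, beside 4.6%, and 0 lower, beside 1.75%. The MI genotypes gave 4 higher, beside 3.45%, and 0 lower, beside 1.31%. The sham genotypes gave 5 higher, beside 0.636%, and 1 lower, beside 2.12%. Between the extremes of the design 6 were higher, beside 3.01%, and 2 lower, beside 0.815%. Sham miR-150 cKO set against MI miR-150 fl/fl gave 3 higher, beside 0.765%, and 1 lower, beside 3.27%. The members have names because the study listed them, so their counts can exceed those shares by that choice alone. Of the 10 probes, 8 were well above background on every array. The others were those of Tnnt3, counted as higher than sham miR-150 fl/fl in each of the 3 other groups, and of Fhl1, a LIM protein of muscle. Without both, the higher counts were 2, 2, 4, 4, 5 and 3 in the order given here, and the lower counts were 0 but for 2 between the extremes. At the adjusted limit limma called 0 of the 10 in every one of these comparisons. The median difference of the 10 probes was 0.13, 0.55, 0.68, 0.89, 1.39 and 0.20 in that order, while over all probes it lay between -0.03 and 0.06. For MI against sham miR-150 fl/fl the median of 0.13 stood beside 1.30 for Sprr1a.

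Nppb, the brain natriuretic peptide gene, had its highest mean in sham miR-150 cKO, unlike Sprr1a. Nppb was 2.99 to 3.65 in sham and 4.31 to 5.11 in MI miR-150 fl/fl, and 5.33 to 6.13 in sham and 4.89 to 5.93 in MI miR-150 cKO. The cKO groups overlapped, and the difference between them was -0.44. Myh7, the slow myosin heavy chain of the fetal ventricle, differed between the fl/fl groups by -0.11, where Sprr1a differed by 1.30. Myh7 was 4.68 to 5.19 in MI miR-150 fl/fl and 8.06 to 8.26 in MI miR-150 cKO, a difference of 3.27. Acta1, skeletal alpha-actin, overlapped between sham miR-150 fl/fl, -0.24 to 1.48, and MI miR-150 fl/fl, 0.43 to 1.63. Ankrd1, a stress-responsive nuclear and sarcomeric protein, differed by 0.97 between the sham genotypes and by 0.13 between the cKO groups. Tnnt3, fast skeletal troponin T, was not well above background on any sham miR-150 fl/fl array, and no fold is given.

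**Figure D4:**
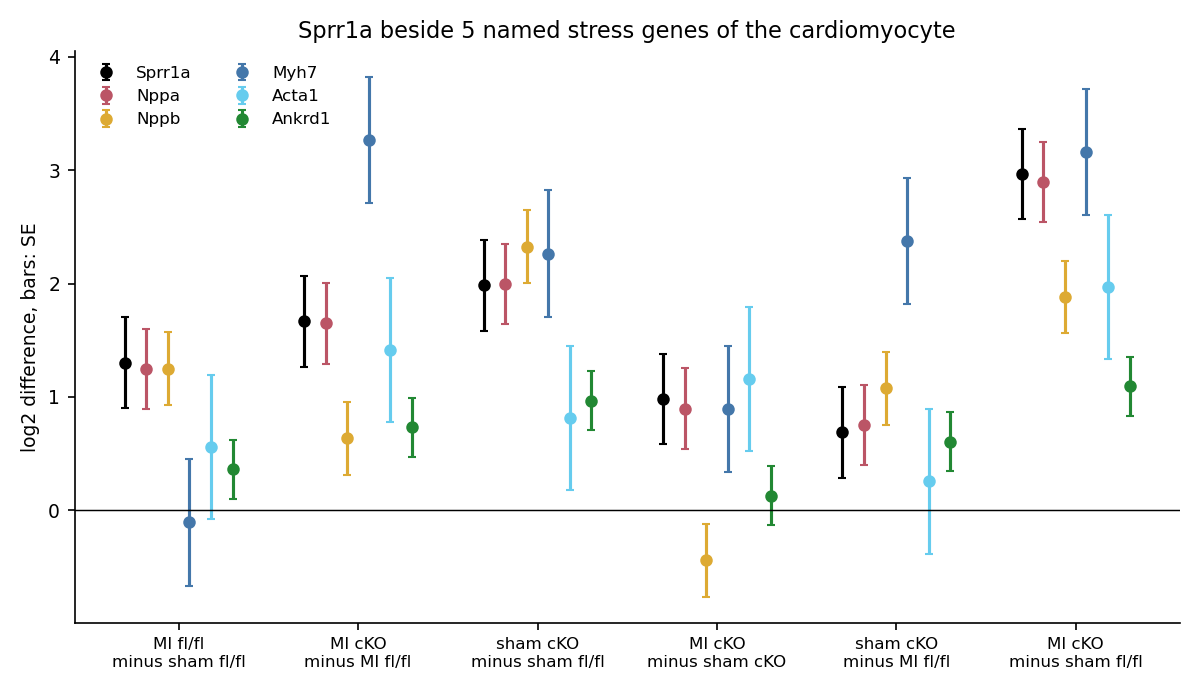
Log2 difference (vertical axis, bars are SE) of Sprr1a and 5 named stress genes in the 6 comparisons between groups, which share arrays. Sprr1a and Nppa lie side by side in each, at 1.30 and 1.25 for MI against sham miR-150 fl/fl and at 1.99 and 2.0 for sham miR-150 cKO against sham miR-150 fl/fl, while Myh7 lies at -0.11 in the former and Nppb at -0.44 for MI against sham miR-150 cKO.

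Ank1, Comp and Nppa were filtered by the study together with Sprr1a. By the study's qPCR, only Sprr1a of these genes was reported as higher in both comparisons used for the filter. Comp, cartilage oligomeric matrix protein, differed by 1.55 and 1.21 in the comparisons used for that filter, by 1.38 between the sham genotypes and by 1.38 between the cKO groups. Ank1, the erythrocyte ankyrin gene, had 2 named probes that ran opposite ways between MI and sham miR-150 fl/fl, at -0.81 and 1.46. The second of them was well above background on 6 of 12 arrays.

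Other genes of the pathway were mostly without a named probe. Of the small proline-rich family and cornified envelope genes, 1 of 25 was named, Sprr1a itself. Among 16 genes of the gp130 pathway Jak1 alone was named, a kinase bound to gp130, and of 8 AP-1 genes Jund alone. Jak1 differed by -0.37 between the sham genotypes and -0.51 between the MI genotypes, with 0 of 6 comparisons past the limits. Jund differed by 0.22 between the sham genotypes, not past the limits. It was 0.85 higher in MI miR-150 cKO than in MI miR-150 fl/fl and 0.73 higher than in sham miR-150 cKO, both past the limits. Of all probes, 3.45% and 4.6% were higher past them there, and Jund has a name because the study listed it. Its adjusted p was 0.0865 and 0.0648 by limma. Between MI and sham miR-150 fl/fl Jund differed by 0.09. None of 5 listed cell death genes, and none of 4 known targets of miR-150, had a name.

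Markers of other cells moved along with Sprr1a in some comparisons. For each list, scaled signals of the probes were summed on the linear scale and log2 was then taken, so the brightest probes weigh most. For the 5 named of 10 fibroblast and matrix genes this was 3.11 to 4.24 in sham miR-150 fl/fl and 5.40 to 5.46 in MI miR-150 fl/fl. It was 4.74 to 5.20 in sham miR-150 cKO and 5.17 to 6.15 in MI miR-150 cKO. On this sum the MI miR-150 fl/fl hearts all stood above the sham miR-150 cKO hearts, while the Sprr1a ranges of these groups overlapped. The 4 named of 10 leukocyte genes summed to 3.91 to 4.83, 4.84 to 5.15, 5.0 to 5.48 and 4.54 to 5.20 in the same order of groups. For the 2 named of 8 adipocyte genes these ranges were -2.08 to -0.80, -0.17 to 1.67, -1.50 to 0.28 and -2.18 to -1.59. The cardiomyocyte marker Tnnt2, over its 2 probes, was 3.67 to 3.95, 3.54 to 3.81, 3.32 to 3.87 and 3.07 to 3.32. None of the keratinocyte, endothelial, smooth muscle and erythroid markers had a name. The part of other cells in the Sprr1a values was not tested.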

How the data were processed

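Total RNA of left ventricles was depleted of rRNA, labelled with random primers and hybridized, 1 mouse per array. The deposited scanner files hold linear intensity per spot, background-subtracted with Agilent Feature Extraction 11.0.1.1 and not scaled between arrays. The authors' table holds log2 values normalized between arrays and served as an alternative. The file headers give build mm9. Spots of a probe were averaged, flagged spots (0.0593%) were missing, log2 was taken without a pseudocount, and each array's 75th percentile was subtracted. A probe was kept if 3 or more of the 12 arrays had it well above background (54232 kept, 6587 not). The 4 group means were fitted with limma 3.58.1 (R 4.3.3; data.table version 1.17.8 read the files), and p values were adjusted over all kept probes by the Benjamini-Hochberg method. Precision is limited by the number of arrays, which left 8 residual degrees of freedom. The fit was tested on simulated data. Likeness and figures used Python 3.11.15, scipy 1.17.1 and matplotlib 3.10.9.

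Probes carry no gene names in the deposited files. Each fold and p of 963 entries of the study's gene sheets, recomputed from the authors' values within a relative tolerance of 2e-05, matched exactly 1 probe, which named 892 probes. All 3 Sprr1a entries matched ASMM10P025000. The sheets' folds and p values served to find names only. Another 15 housekeeping probes were named by accession. Named genes are Sprr1a, the 10 genes with the highest and 5 with the lowest Pearson r, the 10 with the highest r within groups, and at most 6 members of each list with the largest differences. Gdf15, Inhbb and Tcap were given values after theirs were seen. Of the 5 genes with the lowest r, 1 is not reported here. Sprr1a and the gene lists were chosen with earlier results of these data known. Alternatives were 11 planned settings, 3 chosen after seeing the data (slide and row as a block, and scaling on Gapdh or on 15 housekeeping probes), and leaving out each of the 12 arrays.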

Additional observations from a re-analysis of the deposited data

How the results depend on the processing

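Of 180 values of the 7 Sprr1a results under the alternatives, 179 kept the direction of the main value. The exception was the interaction, at 0.054 without sham miR-150 cKO replicate 1. MI miR-150 cKO against sham miR-150 fl/fl, with an adjusted p of 0.0677, was past the adjusted limit under normexp (2.56, adjusted p 0.0333), a fit of only the groups compared (2.97, 0.0329), the filter on all 12 arrays (2.97, 0.035), scaling on 15 housekeeping probes (2.84, 0.0495) and without sham miR-150 cKO replicate 3 (0.030). No other Sprr1a test was past it under any alternative. The difference of these extremes is the sum of those by which the study picked Sprr1a. Its adjusted p values are therefore not independent of that choice. With slide and row as a block, MI against sham miR-150 fl/fl was 2.27. No slide row held both of these groups, so that value came indirectly, through arrays of the cKO groups.

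Leaving out 1 array gave 1.14 to 1.42 for MI against sham miR-150 fl/fl, 1.30 to 1.94 for the MI genotypes, 1.61 to 2.42 for the sham genotypes, 0.55 to 1.35 for MI against sham miR-150 cKO, 0.31 to 1.12 for sham miR-150 cKO against MI miR-150 fl/fl, 2.60 to 3.24 for the extremes and -0.75 to 0.054 for the interaction. Scaling on Gapdh, itself 0.39 higher in MI miR-150 cKO than in MI miR-150 fl/fl, shifted the median of all probes in that comparison by -0.38. Sprr1a was then 1.28 higher, or 1.66 above that median, as in the main scaling.

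Replicate numbers were not taken as pairs in the main fit. Same-numbered deviations correlated at -0.28 to 0.27 and no comparison had all 3 over 0.1. With 3 mice per group these values cannot show that there was no pairing. With the replicate block the sham genotypes differed by 1.99 (adjusted p 0.531) and the extremes by 2.97 (0.146). The count of stress gene probes past the limits in sham miR-150 cKO against MI miR-150 fl/fl, 4, was 2 with quantile normalization and with the authors' values, and 2 to 5 with an array left out. In MI against sham miR-150 cKO, 3, it was 1 to 4, with 1 without sham miR-150 cKO replicate 3. For the 4 other comparisons these ranges were 3 to 4 (MI against sham miR-150 fl/fl), 4 to 6 (MI genotypes), 5 to 6 (sham genotypes) and 8 to 8 (extremes). Of the 10 genes most like Sprr1a, 7 to 10 stayed among the 10 under the other settings and 4 to 9 with an array left out, with 4 without sham miR-150 cKO replicate 1 and 6 without replicate 2. The cause was not tested. The unpaired 2-tailed test called at most 2 probes in any comparison after adjustment, with 1864 to 10118 under its unadjusted limit.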
